A study of Mus musculus with 40 samples.

Results

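Tmem86a encodes a transmembrane enzyme of ether lipid breakdown, and it was represented by 1 probe row (ILMN_2645662) of the 25697 probe rows on the array, found by its gene symbol. Those rows stand for 17914 genes. The gene was chosen by its measured estradiol (E2) and genotype differences: earlier results of these data showed it higher after E2 in wild-type bone and less so in bone of mice without activation function AF-1 of estrogen receptor α (ERα), so its levels, its E2 differences and its genotype differences are described here without a test. The difference in level between the bones, averaged over genotypes and treatments, played no part in that choice and was tested.

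The arrays hold RNA of bone from 15-week-old female C57BL/6 mice, all of them ovariectomized. One group of mice carried the ERα AF-1 deletion (KO) and the other was wild type (WT). 1 week after surgery each mouse received a subcutaneous injection of E2 at 115 µg per kg body weight or of olive oil (vehicle), and bone RNA was taken 18 h later. The 4 groups, KO E2, KO vehicle, WT E2 and WT vehicle, were measured in trabecular bone (the bodies of lumbar vertebrae) and in cortical bone (marrow-flushed shafts of long bones), which gives 8 groups of 5 arrays and 40 arrays in all. The title of the series names a cell culture system and not these samples, so the groups were taken from the sample labels alone. The labels describe the cortical samples once as femora with tibiae and once as femur. They do not say how the AF-1 deletion was made, whether it was present in every cell, whether a mouse gave both kinds of bone, or whether the 5 arrays of a group are 5 animals. The p-values below therefore rest on the spread among these samples, and that spread may be technical. Each of the 5 BeadChips (the glass carriers of the arrays) held 1 array of every group, so that every comparison could also be read within a BeadChip.

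Plasmalogens are membrane phospholipids in which a fatty chain is held by a vinyl ether bond. Their synthesis starts in peroxisomes. TMEM86A and its relative TMEM86B are lysoplasmalogenases: they cut that bond in lysoplasmalogens, the forms that have lost an acyl chain, and release a fatty aldehyde. In mouse, Tmem86a has been described as a target of the liver X receptors (LXR, the oxysterol sensors of lipid metabolism) in macrophages, and as an enzyme of plasmalogen breakdown in adipocytes, where it bears on protein kinase A signalling. ERα is a nuclear receptor with 2 activation functions, of which AF-1 lies in the N-terminal part and AF-2 in the ligand-binding part.

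RefSeq places Tmem86a on mouse chromosome 7. Its promoter is shown because the report turns on the response of this gene to a nuclear receptor ligand and the lipid literature links it to another such receptor. The window covers 250 bases before and 50 bases after the annotated start, at chr7:47050390-47050689 on the plus strand of RefSeq build GRCm38.p6, and is printed 5′ to 3′. Capitals mark the motif matches found on either strand.

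Tmem86a promoter: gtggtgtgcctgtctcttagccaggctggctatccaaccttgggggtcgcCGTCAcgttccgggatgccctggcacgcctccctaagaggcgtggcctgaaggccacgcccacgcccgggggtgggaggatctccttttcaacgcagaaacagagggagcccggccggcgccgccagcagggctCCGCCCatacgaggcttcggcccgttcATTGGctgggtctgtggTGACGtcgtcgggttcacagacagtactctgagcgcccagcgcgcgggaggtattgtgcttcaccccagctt

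Of this window 66.0% was G or C, against a median of 52.7% over 32851 mouse promoters of the same length, and it held 25 CpG pairs against a median of 7. The full estrogen response element, a palindrome of GGTCA half-sites, was not in the window, and 0.07% of all promoters hold it. The nuclear receptor half-site GGTCA was not in it either, and 40.5% of promoters hold it. The same was true of the LXR element, a spaced direct repeat of AGGTCA, which 0.0152% of promoters hold. The window held 1 GC box (GGGCGG, in 35.7% of promoters), 1 CCAAT box (CCAAT, in 37.4%) and 2 copies of the cyclic AMP half-site TGACG (in 20.8%), with none of the full element TGACGTCA (in 1.79%). The GC box and the CCAAT box lie at -66 and -39 from the start, and neither overlaps a TGACG. These matches and gaps describe the letters of 300 bases and say nothing of binding.

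Tmem86a was detected on 40 of 40 arrays, and its deposited intensity ran between 365 and 4903. Levels below are log2 intensities after background correction and quantile normalization over the 40 arrays. In trabecular bone of KO mice given E2 the 5 arrays had 10.59, 10.69, 10.47, 10.47 and 10.22, in the order of BeadChips 1 to 5. With vehicle the KO arrays had 9.87, 10.20, 9.86, 10.47 and 10.19. These ranges overlapped, and on BeadChip 4 the 2 treatments had the same level. In WT mice given E2 the trabecular arrays had 11.97, 11.45, 11.35, 11.23 and 11.58. With vehicle the WT arrays had 9.49, 9.89, 10.24, 10.003 and 10.06. The lowest WT E2 array, 11.23, stood above each of the other 15 trabecular arrays, whose highest had 10.69.

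In cortical bone the KO E2 arrays had 10.70, 10.84, 11.05, 11.44 and 11.04 on BeadChips 1 to 5. The KO vehicle arrays had 10.39, 10.57, 10.35, 10.66 and 10.44. All KO E2 arrays lay above all KO vehicle arrays, with 10.70 and 10.66 as the nearest pair. The WT E2 arrays had 11.54, 11.32, 12.03, 11.99 and 11.99. The WT vehicle arrays had 10.27, 10.13, 10.46, 10.21 and 10.49. The WT E2 arrays lay above the other cortical arrays with 1 exception, the KO E2 array of BeadChip 4 at 11.44, which was above the lowest WT E2 array at 11.32. No array stood apart from the other 4 of its group by Dixon's test.

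**Figure D1:**
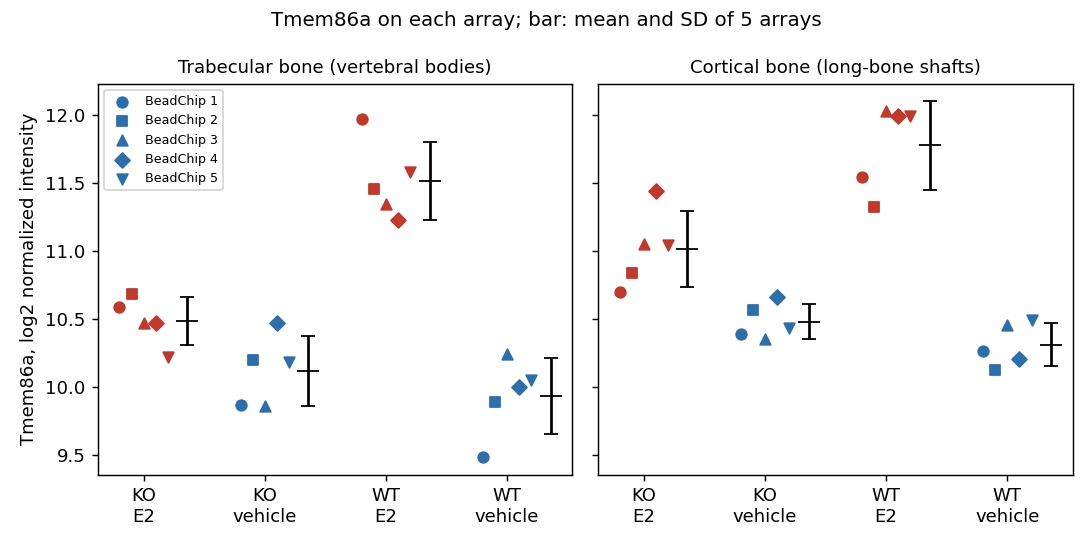
Tmem86a on each of the 40 arrays, as log2 normalized intensity (y axis), by genotype and treatment (x axis), in trabecular bone (left) and cortical bone (right). Red symbols are E2 and blue symbols vehicle, the symbol shape gives the BeadChip, and the black bar is the mean with the SD of 5 arrays. The WT E2 arrays, between 11.23 and 12.03, are the highest in each bone apart from 1 KO E2 cortical array at 11.44.

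Ordered by mean, cortical WT E2 came first at 11.78 ± 0.32 (SD, n = 5), followed by trabecular WT E2 at 11.52 ± 0.29, cortical KO E2 at 11.01 ± 0.28 and trabecular KO E2 at 10.49 ± 0.17. Below them were cortical KO vehicle at 10.48 ± 0.13, cortical WT vehicle at 10.31 ± 0.16, trabecular KO vehicle at 10.12 ± 0.26 and trabecular WT vehicle at 9.94 ± 0.28. Every E2 group was thus above every vehicle group by its mean, but trabecular KO E2 was ahead of cortical KO vehicle by 0.0050 only, and after median scaling it was behind it (10.31 in trabecular KO E2 and 10.40 in cortical KO vehicle). Neighbours in this order shared part of their range, except cortical KO E2 and trabecular KO E2, which were 0.53 apart. The step between trabecular WT E2 and cortical KO E2 (0.50) and that between cortical KO vehicle and cortical WT vehicle (0.17) also exceeded the pooled SD of the pair (0.28 and 0.14). The other 4 steps, between 0.0050 and 0.26, did not.

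The first question is how far E2 moved Tmem86a in each bone and genotype. In KO trabecular bone the log2 difference, E2 minus vehicle, was 0.37 ± 0.17 (SE of the limma fit, 5 arrays a group), or 1.29-fold. Within BeadChips it was 0.72, 0.49, 0.61, -0.00064 and 0.034, so BeadChips 4 and 5 showed next to no difference. In WT trabecular bone it was 1.58 ± 0.17, or 2.99-fold, with 2.49, 1.56, 1.11, 1.22 and 1.52 within BeadChips. Every BeadChip was above 1 there, and BeadChip 1 was the highest. By size the WT difference was 9th and the KO difference 1164th of 8693 genes. Adjusted p under 0.05 was reached by 0.207% of the genes in WT and by 0.0115% in KO.

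In KO cortical bone the E2 difference was 0.53 ± 0.16 (SE, 5 arrays a group), or 1.45-fold, with 0.31, 0.27, 0.70, 0.78 and 0.61 within BeadChips. In WT cortical bone it was 1.47 ± 0.16, or 2.76-fold, with 1.28, 1.19, 1.58, 1.79 and 1.50. All 10 of these BeadChip values were positive. By size the WT difference was 16th and the KO difference 373rd of 9096 genes, of which 0.143% in WT and 0% in KO reached an adjusted p under 0.05. In bulk bone a difference of this kind cannot be divided between more cells of a type and more RNA in each cell.

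The next question is how the deletion changed the E2 difference. KO minus WT, the E2 difference of Tmem86a was -1.21 ± 0.24 in trabecular bone (SE), with -1.77, -1.07, -0.50, -1.23 and -1.49 on BeadChips 1 to 5. In cortical bone it was -0.93 ± 0.23, with -0.97, -0.93, -0.88, -1.01 and -0.89. It was negative on all 5 BeadChips of each bone, and the cortical values varied less between BeadChips (SD 0.054) than the trabecular ones (SD 0.48). Expressed as a share, the log2 difference in KO was 23.4% of that in WT in trabecular bone and 36.3% in cortical bone. An adjusted p under 0.05 for this contrast was reached by 0.0115% of all genes in trabecular and 0% in cortical bone.

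**Figure D2:**
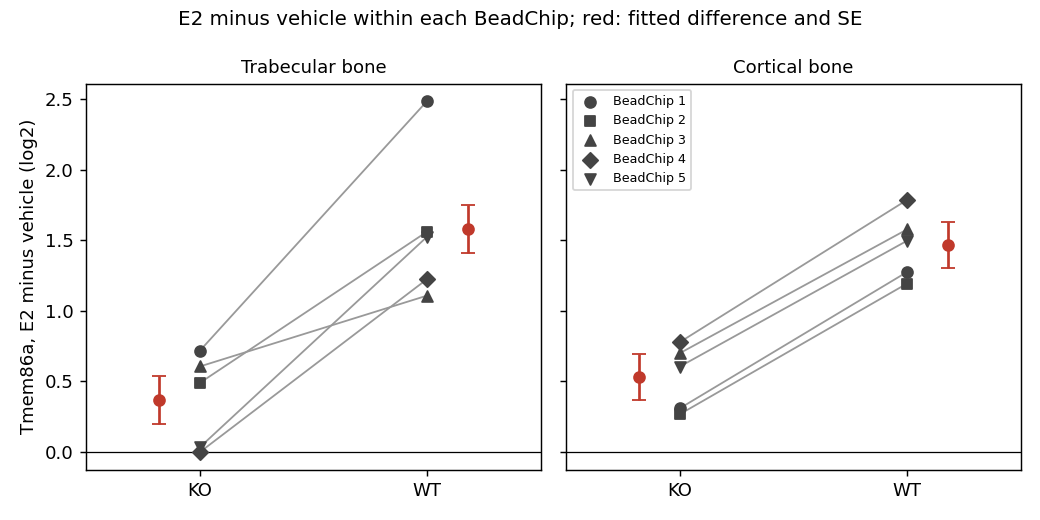
Tmem86a, E2 minus vehicle on the log2 scale (y axis) within each of the 5 BeadChips, for KO and WT mice (x axis), in trabecular bone (left) and cortical bone (right). Grey lines join the KO and WT values of a BeadChip, and red points are the fitted differences with their SE. All 10 lines climb to the WT value: KO lies between -0.00064 and 0.78, and WT between 1.11 and 2.49.

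The genotypes were further apart under E2 than under vehicle. Under E2, KO minus WT was -1.03 ± 0.17 in trabecular bone (0.490-fold), between -1.39 and -0.75 on the 5 BeadChips. In cortical bone it was -0.76 ± 0.16 (0.590-fold), between -0.98 and -0.48. Under vehicle the values were small and above 0: 0.18 ± 0.17 in trabecular bone, positive on 4 of 5 BeadChips, and 0.17 ± 0.16 in cortical bone, positive on 3 of 5. KO vehicle and WT vehicle arrays overlapped in each bone. Of all genes, 0.0345% in trabecular and 0.022% in cortical bone were called between genotypes under E2, and 0% in either bone under vehicle. These contrasts share arrays with the E2 differences above and are not separate evidence.

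The deleted domain belongs to Esr1, the gene for ERα, and its probe was not placed against the deleted part, so it does not check the genotype labels. Esr1 averaged 7.66 ± 0.23 in KO vehicle and 7.73 ± 0.09 in WT vehicle trabecular bone (SD, n = 5 each). In cortical bone it averaged 8.35 ± 0.64 in KO vehicle and 8.21 ± 0.45 in WT vehicle. KO minus WT was -0.08 ± 0.31 and 0.14 ± 0.25 (SE) in trabecular and cortical bone, with limma adjusted p-values of 0.994 and 1.00.

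The difference in level between the bones, averaged over the 4 groups, was the comparison of Tmem86a that its choice left free for a test. Tmem86a was lower in trabecular than in cortical bone. The trabecular samples are vertebral bodies and the cortical ones marrow-flushed shafts. Bone type, skeletal site and preparation therefore cannot be told apart. Averaged over the 4 groups, trabecular minus cortical was -0.38 ± 0.08 (SE of the limma fit over 40 arrays), or 0.767-fold, with an adjusted p of 0.000158 and a negative value on 5 of 5 BeadChips. Of the 9451 genes tested, 55.7% were called in this comparison, so a call here was common. The differences in single groups share arrays with the E2 and genotype differences by which the gene was chosen. Their p-values are therefore not free of that choice and serve as a description. Taken one by one, the difference was -0.53 ± 0.16 in KO E2, where it passed (limma adjusted p = 0.0174, 22.9% of genes called). It was -0.36 ± 0.16 in KO vehicle (adjusted p = 0.104, 22.3% called), -0.26 ± 0.16 in WT E2 (adjusted p = 0.270, 19.4% called) and -0.37 ± 0.16 in WT vehicle (adjusted p = 0.0970, 20.6% called). It was negative on 5 of 5 BeadChips in each of these but WT E2, where it was negative on 3 of 5. The call in KO E2 ended without BeadChip 3 (adjusted p = 0.0517), BeadChip 4 (0.109) or BeadChip 5 (0.133), without the cortical KO E2 array of BeadChip 4 (0.0620) or the trabecular KO E2 array of BeadChip 5 (0.0556), and after median scaling (0.438). With BeadChip 1 left out and BeadChip as a block, the WT E2 difference was -0.43 and passed (limma adjusted p = 0.0423).

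The E2 difference of Tmem86a can also be set side by side in the bones, as a description, since the gene was chosen by it. Trabecular minus cortical, it was -0.16 ± 0.23 (SE) in KO and 0.12 ± 0.23 in WT, each smaller than its SE. Of all genes 0% in KO and 0.0106% in WT were called for this contrast. In WT the sign turned without BeadChip 1, where the value was -0.16.

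**Figure D3:**
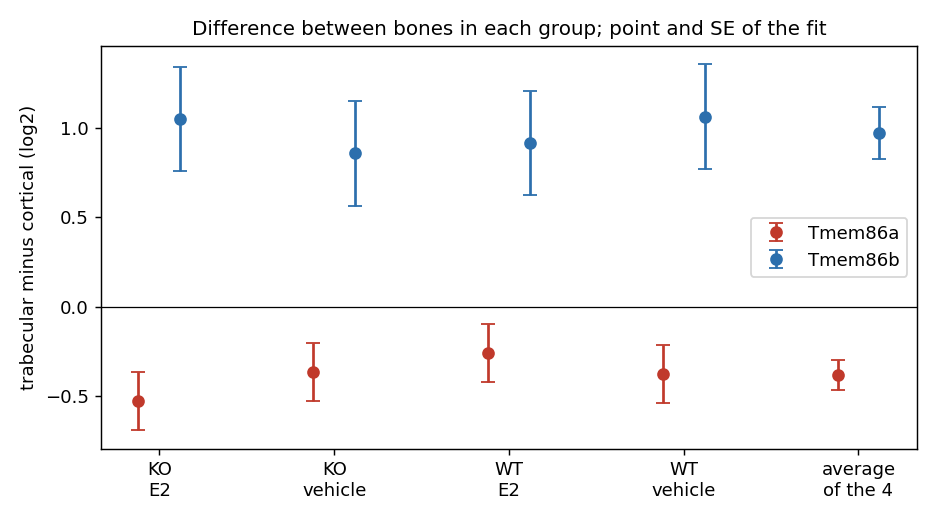
Trabecular minus cortical on the log2 scale (y axis) for Tmem86a (red) and Tmem86b (blue) in each of the 4 groups and averaged over them (x axis), with the SE of the fit. Tmem86a lies below 0 in every group (average -0.38) and Tmem86b above 0 (average 0.97).

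Tmem86b, the other lysoplasmalogenase gene, had the opposite distribution. It was detected on 17 of 20 trabecular and 12 of 20 cortical arrays. Averaged over the groups it was 1.96-fold higher in trabecular than in cortical bone, by 0.97 ± 0.15 on the log2 scale (SE, limma adjusted p = 8.43e-07, higher on 5 of 5 BeadChips), and the differences in single groups, between 0.86 and 1.06, all passed. None of its E2 differences passed. In trabecular bone its E2 difference was 0.07 ± 0.28 in KO and -0.04 ± 0.28 in WT, and in cortical bone -0.13 ± 0.29 in KO and 0.11 ± 0.29 in WT, with adjusted p-values between 0.982 and 1.00. Its RefSeq promoter window on chromosome 7 held 1 CpG pair, 51.7% G or C and 1 CCAAT match, and it held no TGACG, GC box or GGTCA.

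Markers of several cell types differed between the bones in the same direction as Tmem86a, and those of several others in the opposite direction. The lists of cell type markers are given as the mean log2 level of their measured members on each array. The osteocyte list (6 of 7 measured) lay between 6.91 and 7.74 on trabecular and between 8.78 and 10.1 on cortical arrays, a difference of -2.07 ± 0.21 (SD over 5 BeadChips). Of its members, Dmp1 and Dkk1 were each detected on 1 trabecular array and Sost on 0. The size of this difference thus rests in part on signal near background. The skeletal muscle list (14 of 14) lay between 10.01 and 11.9 on trabecular and 11.7 and 14.0 on cortical arrays, a difference of -2.05 ± 0.14. For the adipocyte list (10 of 13) the ranges were 8.15 to 9.07 and 9.13 to 10.6, a difference of -1.12 ± 0.23. The endothelial (-0.69) and osteoblast (-0.65) lists were lower in trabecular bone too. The chondrocyte (0.75), B-lineage (0.58), erythroid (0.34), macrophage (0.22) and neutrophil (0.21) lists were higher, and the osteoclast list had 0.05. The chondrocyte and adipocyte differences also rest in part on signal near background. Acan and Col10a1 of chondrocytes were detected on 1 and 2 cortical arrays and Col11a1 on 0 trabecular arrays. Cidec and Lipe of adipocytes were detected on 0 and 1 trabecular arrays. Among defining markers, Sost of osteocytes was not detected on any trabecular array, and Plin1, Fabp4 and Retn of adipocytes and Runx2 of osteoblasts were not detected on any array of either bone. The part of these lists in the bone difference of Tmem86a was not tested.

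Beside the E2 difference of Tmem86a the same lists had the following values, with no test of a list. In WT trabecular and cortical bone limma called 0 members of any of them for E2, where 0.207% and 0.143% of all genes were called. In WT trabecular bone, E2 minus vehicle was 0.36 ± 0.07 for the osteoblast list (13.1 to 13.2 with E2 and 12.6 to 12.9 with vehicle), 0.28 ± 0.05 for the osteocyte list (7.40 to 7.61 and 7.12 to 7.35) and 0.33 ± 0.18 for the osteoclast list (11.04 to 11.13 and 10.55 to 10.96), each positive on 5 of 5 BeadChips (SD over BeadChips). In KO trabecular bone these were 0.12 ± 0.21, 0.15 ± 0.36 and 0.05 ± 0.14. Only 3 osteocyte members passed the filter in trabecular bone. Sost was detected on 0 of its 20 arrays, and Dmp1 and Dkk1 on 1 each. The trabecular osteocyte means thus include signal near background. In cortical bone the osteocyte list had 0.06 ± 0.60 in KO and 0.44 ± 0.27 in WT (positive on 5 of 5 BeadChips in WT), while the osteoblast list had -0.08 ± 0.33 in KO and 0.05 ± 0.23 in WT. The osteoclast list had 0.20 ± 0.61 in KO and -0.04 ± 0.26 in WT cortical bone. The adipocyte list had 0.23 ± 0.28 in KO and 0.12 ± 0.23 in WT trabecular bone, and 0.13 ± 0.63 in KO and 0.10 ± 0.98 in WT cortical bone. The macrophage list had -0.04 ± 0.39 in KO and 0.19 ± 0.34 in WT trabecular bone, and 0.13 ± 0.50 in KO and 0.07 ± 0.49 in WT cortical bone. The skeletal muscle list had 0.42 ± 0.51 in KO and 0.52 ± 0.75 in WT trabecular bone, and 0.17 ± 0.70 in KO and -0.03 ± 1.78 in WT cortical bone. The chondrocyte list had 0.45 ± 0.61 in KO and -0.63 ± 1.35 in WT trabecular bone, and -0.01 ± 0.46 in KO and -0.34 ± 0.30 in WT cortical bone. Its cortical means include signal near background, since Acan and Col10a1 were detected on 1 and 2 cortical arrays. The B-lineage list had -0.15 ± 0.31 in KO and 0.27 ± 0.52 in WT trabecular bone, and -0.33 ± 0.65 in KO and 0.15 ± 0.49 in WT cortical bone. The endothelial, erythroid and neutrophil lists lay between -0.15 and 0.23 in the 4 comparisons. A mean over several genes and a single gene chosen for its E2 difference are unlike measures, so their sizes are not compared here. The part of these lists in the E2 difference of Tmem86a was not tested. On BeadChip 1 the trabecular arrays detected fewer probes (8052 to 9218) than those of the other BeadChips (10357 to 11203). Without BeadChip 1 the WT trabecular E2 difference was 1.35, the lowest value under any of the settings tried.

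The other genes of the pathways around Tmem86a were read against the share of all genes called. In all, 73 genes in 5 lists were considered (plasmalogen synthesis; plasmalogen breakdown and acyl chain remodelling; LXR and its targets; protein kinase A and lipolysis; estrogen receptors and their targets), of which 44 could be tested in trabecular and 47 in cortical bone. By limma 0 of them were called for E2 minus vehicle in KO or WT of either bone, and 0 for KO minus WT in the E2 difference or under vehicle. Of all genes, 0.0115% in KO and 0.207% in WT trabecular bone and 0% in KO and 0.143% in WT cortical bone were called for E2, shares at which few or no calls fall in lists of this size. An unadjusted p under 0.05 for E2 minus vehicle was found for 3 in KO and 3 in WT trabecular bone and for 2 in KO and 1 in WT cortical bone. As a share that is 6.82% in each trabecular comparison, where all genes had 4.16% in KO and 6.78% in WT. In cortical bone it is 4.26% in KO and 2.13% in WT, where all genes had 3.50% and 3.13%.

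Among the 11 genes of ether lipid synthesis, 9 were tested, and their median E2 difference was -0.10 in WT trabecular and -0.09 in WT cortical bone, against -0.0077 and -0.0025 over all genes. Agps, the peroxisomal enzyme that makes the ether bond, had -0.24 ± 0.17 in WT trabecular and -0.27 ± 0.16 in WT cortical bone (SE, limma adjusted p = 0.808 and 1.00). Pex5, the import receptor for peroxisomal enzymes, had -0.22 ± 0.12 in WT cortical bone, and the reductase Dhrs7b had -0.21 ± 0.14 in WT trabecular bone. Of the 20 genes of plasmalogen breakdown and acyl chain remodelling, 14 were tested, with medians of 0.04 and 0.05. The acyltransferase Mboat2 had 0.70 ± 0.36 in WT trabecular bone (adjusted p = 0.757), and Lpcat4, also an acyltransferase, had -0.44 ± 0.28. In WT cortical bone the lysophospholipase D gene Gdpd1 had 0.41 ± 0.24.

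The LXR list (19 genes, 10 tested in trabecular and 11 in cortical bone) had medians of 0.05 and 0.02. Its members pointed both ways in WT trabecular bone: the sterol exporter Abcg1 had -0.55 ± 0.25 (SE, unadjusted p = 0.0358, adjusted p = 0.719), and lipoprotein lipase, Lpl, had 0.40 ± 0.18 (unadjusted p = 0.0432, adjusted p = 0.732). In KO trabecular bone Lpl had 0.59 ± 0.18 and the desaturase Scd1 1.01 ± 0.26, with adjusted p of 0.964 each. In WT cortical bone the phospholipid transfer protein Pltp had -0.71 ± 0.26 (adjusted p = 1.00), and Nr1h3, which encodes LXRα, had 0.33 ± 0.20. The protein kinase A and lipolysis list (11 genes, 5 and 6 tested) had medians of -0.15 and -0.05. The estrogen list (13 genes, 7 and 8 tested) had -0.01 and 0.03. In it, Esr1 had -0.59 ± 0.31 in KO and -0.68 ± 0.31 in WT trabecular bone (adjusted p = 0.964 and 0.731).

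**Figure D4:**
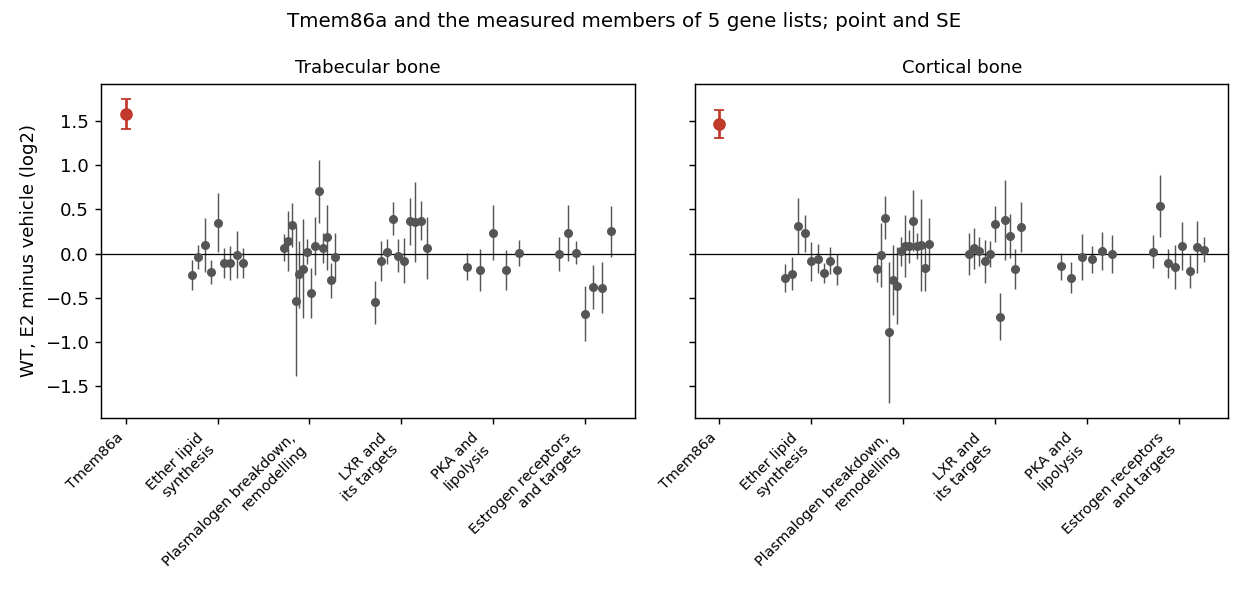
E2 minus vehicle in WT mice on the log2 scale (y axis), with the SE of the fit, for Tmem86a (red) and each tested member of the 5 gene lists (grey), in trabecular bone (left) and cortical bone (right). Tmem86a, at 1.58 and 1.47, lies above every list member, the highest of which had 0.70 and 0.54. Tmem86a was chosen by its E2 difference, so its place above the lists follows in part from the choice.

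Between the bones the lists were as mixed as the genome at large. Of 48 members tested, 28 were called by limma for the average difference, 15 higher and 13 lower in trabecular than in cortical bone. Of the 28, Plaat1 and Pltp were detected on 0 trabecular arrays and Pla2g4c on 0 cortical arrays, and Gper1 on 1 of 20 trabecular arrays, so their differences have no measured size. Of all genes 55.7% were called, 31% higher and 24.7% lower. Breakdown and remodelling genes were higher in 8 cases, among them Tmem86b, Lpcat4 (0.80 ± 0.16), Mboat2 (0.68 ± 0.18), Tmem164 (0.43 ± 0.12) and Lpcat3 (0.41 ± 0.07), and lower in 3, Plaat1, Enpp2 (-0.58 ± 0.18) and Mboat1 (-0.34 ± 0.14). For synthesis, Far1 (0.52 ± 0.15), Agps (0.41 ± 0.08) and Selenoi (0.29 ± 0.09) were higher and Chpt1 (-0.88 ± 0.16) was lower. Of the LXR list 3 were higher (Nr1h2, Lpcat3 and Abcg1) and 3 lower (Scd1, Lpl and Pltp). In the protein kinase A and lipolysis list Abhd5 was among those higher, and Pnpla2 and Prkaca were lower. All 4 estrogen list members called were lower: Gper1, Esr1 (-0.78 ± 0.14), Ccnd1 (-0.53 ± 0.10) and Igfbp4 (-0.34 ± 0.11).

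The genes beside Tmem86a on the chromosome were few enough for each to be given. Of the 5 protein-coding genes on each side in RefSeq order, Ldha, Ldhc, Tsg101 and Uevld were tested in both bones and Ptpn5 in cortical bone, and limma called none for E2 minus vehicle in either genotype, where 0.0115% of all genes in KO and 0.207% in WT trabecular bone, and 0% in KO and 0.143% in WT cortical bone, were called. At such shares no call is to be read as a result about these 5 genes. In WT trabecular bone Ldha (lactate dehydrogenase A) had 0.43 ± 0.21 and Ldhc -0.42 ± 0.30 (SE). Tsg101 had 0.03 ± 0.23 and Uevld -0.12 ± 0.24. In WT cortical bone the values of Ldha, Ldhc, Tsg101 and Uevld were 0.08 ± 0.19, -0.62 ± 0.42, 0.03 ± 0.23 and -0.13 ± 0.22. Between the bones Ldha, like Tmem86a, was lower in trabecular bone (-0.59 ± 0.10), and Ldhc (0.83 ± 0.19) and Uevld (0.52 ± 0.12) were higher.

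Genes with a pattern like that of Tmem86a were ranked by Pearson's r over the 40 arrays after each bone was centred on its own mean. These arrays share BeadChips and treatment groups, so r is a description. Over 9450 genes 14 had an r above 0.7. The 10 highest were Shox2, a homeobox gene of limb development (r = 0.83, Spearman's rho = 0.60), Fam78b (0.82, rho 0.78), the myosin light chain Myl10 (0.82, rho 0.77), the elastic fibre crosslinking enzyme Loxl1 (0.81, rho 0.73) and Rasl11a, a small Ras-like GTPase (0.79, rho 0.70), then Lgi2 (0.78, rho 0.63), Ambp (0.78, rho 0.46), the clock activator Arntl (0.76, rho 0.74), the adaptor Grb7 (0.74, rho 0.61) and the ligand Wnt4 (0.73, rho 0.73). The lowest were the clock genes Per2 (-0.68, rho -0.77) and Dbp (-0.62, rho -0.65), with Dmkn (-0.65, rho -0.58), the cytokine Il15 (-0.62, rho -0.53) and the lymphocyte antigen Cd69 (-0.61, rho -0.55). Ambp was detected only on WT E2 arrays (4 trabecular and 3 cortical), and Lgi2 on 7 WT E2 arrays and 2 WT vehicle arrays of cortical bone. Both passed the filter through the group where Tmem86a was highest, so their r follows in part from the filter. The choice by r over 8 group means, for which the bones were not centred, named 2 of the same 10. That r also takes in the difference in level between the bones, so it differs from the main one in more than the averaging. Shox2, first here, was 4th with the replicate block and 296th over the group means.

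These likenesses lay mostly between the groups. Once the mean of each of the 8 groups was taken out, no gene had an r above 0.7, the 10 genes had residual r between -0.03 (Grb7) and 0.44 (Shox2), and among the highest residual r were those of Dtnb (0.65), Cbr3 (0.59), Rcl1 (0.59) and Nme3 (0.59). The lowest were Zfp770 (-0.65), Amd2 (-0.63), Zfp597 (-0.61), Kpna1 (-0.59) and Plin5 (-0.57).

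5 genes that earlier results of these data had called for E2 in WT of both bones are given beside Tmem86a. Leaving out 1 BeadChip often ended those calls by limma: in WT cortical bone that of Rasl11a without any one of the 5, of Fam78b without 1, 2, 3 or 4, of Shox2 without 1, 3, 4 or 5, of Per2 without 2, 3 or 4 and of Myl10 without 3 or 4. In WT trabecular bone it ended those of Rasl11a and Per2 without 2, 3, 4 or 5 and of Fam78b without 2 or 4. Shox2 fell below the filter in trabecular bone with any BeadChip left out and was not tested. All comparisons use the same arrays and controls, so the values stand side by side without a test of likeness. Tmem86a had 0.37 in KO and 1.58 in WT trabecular bone, and 0.53 and 1.47 in cortical bone. Myl10 had 2.17 in KO and 2.55 in WT cortical bone, although only 1 KO vehicle and 3 WT vehicle arrays there detected it. In KO trabecular bone Myl10 was at least 1.95-fold higher with E2, since no KO vehicle array detected it. Shox2, detected on all 20 cortical arrays, had 0.04 in KO and 1.19 in WT cortical bone. In trabecular bone Shox2 was detected on 5 of 5 WT E2 arrays and on none of the KO E2, KO vehicle or WT vehicle arrays, and WT E2 was at least 1.96-fold higher than WT vehicle. Fam78b had 0.36 in KO and 1.42 in WT cortical bone, and in trabecular bone 0.97 and 1.77, where 1 vehicle array of each genotype detected it. Rasl11a had 0.68 in KO and 1.50 in WT cortical bone. In trabecular bone no KO vehicle and no WT vehicle array detected Rasl11a, which in WT was at least 1.72-fold higher with E2. Per2 went the other way, with -0.26 and -0.90 in trabecular and -0.72 and -1.52 in cortical bone.

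**Figure D5:**
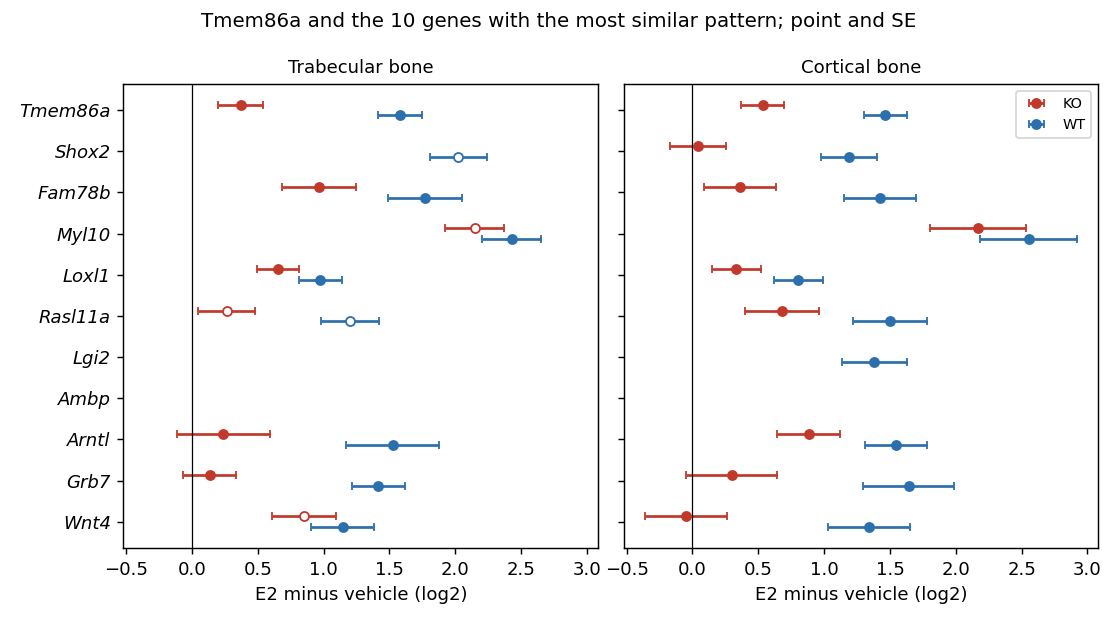
E2 minus vehicle on the log2 scale (x axis) in KO (red) and WT (blue) mice for Tmem86a and the 10 genes whose pattern was most like it (y axis), with the SE of the fit, in trabecular bone (left) and cortical bone (right). Open points are fitted values against a group in which no array detected the gene, so their place is not a measured size. Genes with no point were detected in neither group or by too few arrays of the bone. In cortical bone Tmem86a had 0.53 in KO and 1.47 in WT, and Shox2 had 0.04 and 1.19.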

How the data were processed

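Biotin-labelled cRNA was hybridized to Illumina BeadChips, per the labels' protocols, and the deposited table gives an intensity and a detection p-value for each probe and array, per the file headers. The submitters' processing notes name GenomeStudio; its version and a genome build are not given in the sources used here. From the deposited intensities, neqc (limma 3.58.1, R 4.3.3) removed background by way of the detection p-values, added an offset of 16, quantile-normalized the 40 arrays together and took log2. The authors' deposited normalized intensity values served as an alternative.

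A probe was kept when its detection p-value was under 0.01 on 5 or more arrays of a fit, and the brightest probe stood for its gene. Symbols were updated through RefSeq: 20733 probes had a current symbol, 3903 were renamed through a synonym and 3 by letter case, and 1058 kept their name. That left 8693 genes in trabecular bone, 9096 in cortical bone and 9451 in the fit of both. Groups were compared with lmFit and eBayes, on the 20 arrays of a bone or, between bones, on all 40. P-values are two-sided, with Benjamini-Hochberg adjustment over all genes and a threshold of 0.05. The number of arrays limits the precision. Where no array of a group detected a probe, the fold is a lower bound, set against the lowest signal among detected probes on each array or the probe's own where higher.

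Replicate numbers pair the arrays because each number is 1 BeadChip, as the array titles show. Deviations of same-numbered arrays from their group means correlated weakly (mean r per number between 0.04 and 0.30 in trabecular and -0.04 and 0.36 in cortical bone).

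The gene, the lists and the genes set beside it were chosen with earlier results of these data known. Named were Tmem86a, Tmem86b, list members called or with the smallest p in WT E2 minus vehicle, 5 shared E2 genes, the genes highest and lowest in r, and the neighbours on the chromosome. Lpl and Scd1 in KO were named after their values were seen. Some genes that this rule names are not reported here.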

Additional observations from a re-analysis of the deposited data

Results flagged for a closer look

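The KO minus WT difference in E2 minus vehicle of Shox2 in trabecular bone had a limma adjusted p of 0.0219, the only call among 8693 genes. The fitted value was -2.00 ± 0.31 (SE, lower on 5 of 5 BeadChips), but Shox2 was detected on 5 of 5 WT E2 arrays and on 0 of the other 15, so the difference has no measured size and Shox2 passed the filter through that group alone. No gene was called with the authors' values, without background correction, with trend and robust empirical Bayes, or without any one of BeadChips 2, 3, 4 and 5. With any BeadChip left out, however, Shox2 fell below the 5 detected arrays that the filter asks for and was not tested. Those fits therefore do not bear on its call. Shox2 was picked for a pattern like this, so the call was in part fixed by the choice.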

How the results depend on the processing

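The E2 differences of Tmem86a kept their sign under every setting tried: 0.28 to 0.38 in KO and 1.35 to 1.66 in WT trabecular bone, and 0.48 to 0.59 in KO and 1.28 to 1.58 in WT cortical bone. With single arrays or BeadChips left out they were 0.28 to 0.46 in KO and 1.35 to 1.70 in WT trabecular bone, and 0.43 to 0.61 in KO and 1.39 to 1.58 in WT cortical bone. The KO minus WT difference in the E2 difference lay between -1.28 and -1.05 in trabecular bone, and between -1.39 and -1.07 when arrays or BeadChips were left out. In cortical bone it was -0.75 with array weights, -0.87 with the authors' values, -1.08 after median scaling, -0.86 without background correction, and -1.05 to -0.85 when arrays or BeadChips were left out. Under E2 the cortical KO minus WT difference was -0.52 with array weights. Mean levels moved by more than their SD for cortical KO vehicle (10.65 with the authors' values, 10.66 without background correction), cortical WT vehicle (10.50 and 10.51) and trabecular KO E2 (10.31 after median scaling, 10.67 without background correction). The average bone difference stayed called, between -0.48 and -0.34 (adjusted p 5.72e-05 to 0.0350), and with the replicate block, which pairs arrays by BeadChip, its adjusted p was 0.000159; the block alone changed no call on Tmem86a. In KO E2 the bone difference was -0.59 after median scaling and no longer called, and -0.63 to -0.42 over the leave-one-out fits. In KO vehicle it was -0.35 with array weights and called (adjusted p = 0.0332), and in WT E2 it was -0.43 and called when BeadChip 1 was left out of the fit with the replicate block. The bone difference in the WT E2 response was -0.16 without BeadChip 1, with or without the block, and lay between -0.16 and 0.28 when arrays were left out. Of the 5 lists, 1 member was called in KO cortical bone with array weights, and 13 (median scaling) or 14 (probes detected on every array) for the average bone difference, where 28 were called. Asking for detection on every array leaves fewer members to test, so the 14 cannot be read as lost calls alone. For Abhd5 in WT cortical bone the value with array weights was 0.0087, against the opposite sign in the main setting. Counts over all genes varied more: 18 in WT trabecular bone became 47 with array weights and 4 after median scaling, 13 in WT cortical bone 31 with all 40 arrays and 4 with the compared groups alone, 0 in KO cortical bone 48 with array weights, and 5262 between the bones 2834 after median scaling. The ranking by r over 8 group means shared 2 of its 10 genes with the main one, from which it also differs in that the bones were not centred. The cause of these shifts was not tested. Another probe of Tmem86a could not be tried, since the array had 1.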
